A study of Mus musculus with 9 samples.

Results

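The microRNAs mmu-miR-6481, mmu-miR-3470b and mmu-miR-690, written below without the prefix for mouse, are 3 of the 946 rows of a small-RNA table from mouse liver. Their rows were found by name, and all 3 passed the low-count filter that left 360 rows for testing. They were picked because their levels were already known to differ between the groups described here, so their differences are given as descriptions, with no test. None of them is a classical liver miRNA, and the sequence, the hairpin and the reads of each are therefore set out with the levels.

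The animals were wild-type (WT) C57 BL6 mice of 8 weeks, and 3 groups of 3 liver libraries were sequenced. The Control group was given saline, the APAP group an intraperitoneal dose of 500 mg/kg acetaminophen (APAP), and the dmPGE2+APAP group that same dose 1 h after 300 µg/kg of dmPGE2, a methylated prostaglandin E2, by the same route. Tissue was taken 6 h after APAP. No group had dmPGE2 alone, no vehicle for dmPGE2 is named, and separate animals are not stated for the libraries, so a p-value covers the spread among these samples, which may be technical only. The 3 Control columns carry a prefix that no label holds and were taken as Control because the other columns name the remaining groups.

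A miRNA is cut from a hairpin precursor by Drosha and Dicer, and the released strand of about the length of a short guide pairs with messenger RNAs mainly through its seed (bases 2 to 8). An annotated miRNA is better supported when its hairpin folds tightly, when both arms give reads and when its letters lie at few places in the genome. miR-3470b and miR-690 are rodent names with few studies. miR-690 has been studied as a cargo of vesicles from alternatively activated macrophages, in work on insulin sensitivity. Acetaminophen at high dose injures hepatocytes through a reactive metabolite that depletes glutathione and damages mitochondria, and prostaglandin E2 acts through receptors coupled to cAMP and calcium.

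The mature sequences are shown because the seed sets each miRNA's possible targets and because their letters bear on where the reads can come from. They are from RefSeq on GRCm38.p6, the assembly also named mm10, and the capitals mark the seed.
miR-6481, chr3:99199367-99199385, minus strand: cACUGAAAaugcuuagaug
miR-3470b, chr16:44013885-44013905, plus strand: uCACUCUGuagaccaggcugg
miR-690, chr16:28599940-28599961, minus strand: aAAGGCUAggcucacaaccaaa
The 3 seeds differ from each other, and 0 of the other names among 1679 mature miRNAs searched shares any of them. miR-6481 is 19 bases long against a median of 22 over the 303 tested miRNAs with a RefSeq mature sequence, and 6 of those 303, itself included, are that short or shorter. miR-3470b has 21 bases and miR-690 has 22.

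The hairpins of miR-6481 and miR-690 are shown with the mature stretch in capitals, since their shape differs from that of most tested miRNAs.
miR-6481 hairpin, chr3:99199344-99199453, minus strand: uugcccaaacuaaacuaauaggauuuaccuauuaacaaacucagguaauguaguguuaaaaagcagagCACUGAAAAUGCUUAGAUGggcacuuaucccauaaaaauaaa
miR-690 hairpin, chr16:28599935-28600043, minus strand: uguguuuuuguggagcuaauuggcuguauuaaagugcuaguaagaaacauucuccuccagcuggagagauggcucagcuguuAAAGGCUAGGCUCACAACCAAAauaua
The hairpin of miR-3470b (chromosome 16, 44013852 to 44013977) is named by position only.

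The precursor of miR-6481 had the weakest predicted fold per base of the 287 tested miRNAs with a RefSeq hairpin. RNAfold gave it -22.5 kcal/mol over 110 bases, or -0.205 kcal/mol per base, against a median of -0.436 and a range of -0.713 to -0.205 over the 287. In that fold 12 of the 19 mature bases were paired (63.2%), and 4 of the 287 mature miRNAs, miR-6481 included, were paired at that share or less. The precursor of miR-690 stood at -0.266 kcal/mol per base, with 6 of the 287 as weak or weaker, itself included, and 15 of its 22 mature bases (68.2%) were paired. The median share paired was 84.0%. Both precursors have a single mature arm in RefSeq, as do 23 of the 287 (8.01%), so RefSeq names no partner strand whose reads could be set beside theirs. That share counts RefSeq entries only. miR-126a-3p is among the 23, although miR-126a-5p also had reads here. The hairpins are also long, at 110 and 109 bases against a median of 84.

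**Figure D1:**
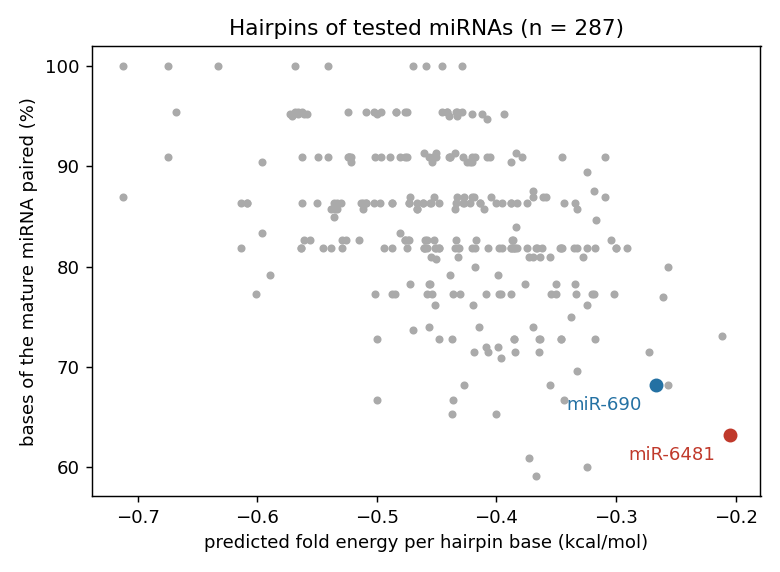
Predicted fold energy per base of the hairpin (x axis, kcal/mol, weaker to the right) against the share of mature bases paired in that fold (y axis, percent) for the 287 tested miRNAs with a RefSeq hairpin, each a grey point. miR-6481, in red, lies farthest to the right at -0.205 and 63.2%, and miR-690, in blue, at -0.266 and 68.2%.

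All 3 hairpins lie inside the bounds of protein-coding genes. Mir6481 lies within Wars2 (chromosome 3, 99140107 to 99221230), which encodes the mitochondrial tryptophanyl-tRNA synthetase, on the strand opposite to the gene. Mir3470b lies within Gramd1c (chromosome 16, 43980350 to 44065380), a gene of the GRAM-domain sterol carriers, also on the opposite strand. Mir690 lies within Fgf12 (chromosome 16, 28157783 to 28753243), an intracellular relative of the fibroblast growth factors, on the same strand. The table used gives no exon bounds, so exon and intron were not told apart. Whether the authors counted reads by strand is not given in the sources used.

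The letters of miR-3470b occur at many places. They were searched on both strands, allowing up to 2 mismatches, in 32851 windows of 300 bases around gene starts, and matches on each miRNA's own locus were left out. miR-3470b matched 10 windows exactly (0.0304% of them) and 68 with up to 2 mismatches (0.207%), more than any other of the 303 tested miRNAs searched. Next came miR-574-5p with 63 windows and miR-6538 with 10, both without an exact match. miR-690 matched 4 windows (0.0122%), 1 of them exactly, and miR-6481 matched 0. Of the 303, 2 had any exact match (0.66%), namely miR-3470b and miR-690, and 10 had any match at all (3.3%). A match describes letters only and is neither a transcript nor a site of action.

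The likeness of these windows runs past the mature sequence. Examples with 20 bases on either side are shown, read in the direction of miR-3470b, with the matched letters in capitals.
Ccdc42, chr11:68586816-68586876, minus strand: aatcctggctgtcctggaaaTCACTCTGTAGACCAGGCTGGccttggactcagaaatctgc
Gm35634, chr4:131409462-131409522, minus strand: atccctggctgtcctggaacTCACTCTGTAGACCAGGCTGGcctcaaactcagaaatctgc
Rfpl4b, chr10:38821929-38821989, minus strand: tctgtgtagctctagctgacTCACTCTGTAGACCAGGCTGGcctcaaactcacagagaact
Fbxo6, chr4:148152249-148152309, plus strand: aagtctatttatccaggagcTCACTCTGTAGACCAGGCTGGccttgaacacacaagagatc
Over the 41 separate places with up to 2 mismatches and complete flanks, any pair shared a median of 67.5% of the 40 flanking bases (range 15% to 95%), against 25.1% from base composition alone. The commonest base at a flanking position was held by a median of 80.5% of the windows upstream and 76.8% downstream. As general knowledge, short interspersed repeats such as B1 lie at very many places in the mouse genome. The tables used here do not annotate repeats, and the reads were not mapped again.

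**Figure D2:**
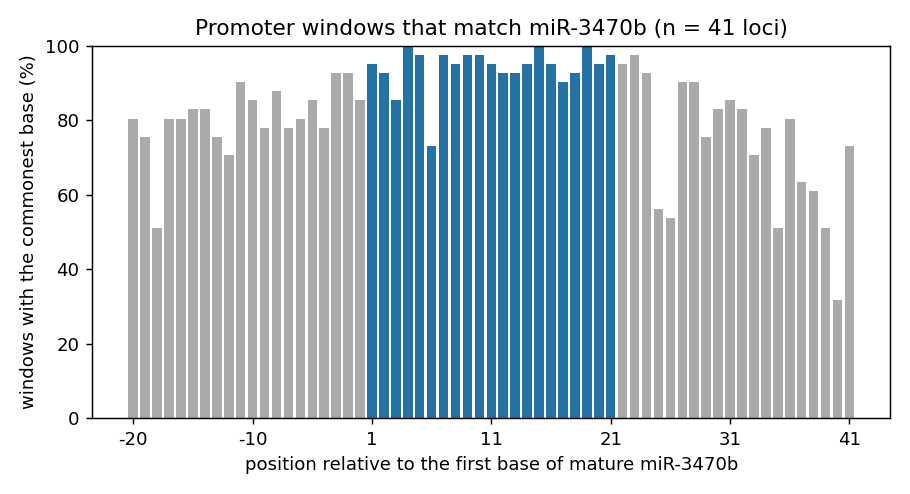
Share of the 41 matched promoter places (y axis, percent) that hold the commonest base at each position (x axis, 1 is the first base of mature miR-3470b). Blue bars are the matched stretch, alike by construction, grey bars are the 20 bases on either side (medians of 80.5% and 76.8%).

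For miR-690 too the bases upstream of the match resembled its own hairpin. Windows at 3 genes had complete flanks, and the capitals again mark the stretch matched to the mature miRNA.
Cpa3, chr3:20242328-20242389, minus strand: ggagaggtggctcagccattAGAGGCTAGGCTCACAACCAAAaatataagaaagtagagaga
Olfr891, chr9:38180920-38180981, plus strand: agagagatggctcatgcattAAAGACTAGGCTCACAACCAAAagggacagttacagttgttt
Gm40353, chr5:150671081-150671142, plus strand: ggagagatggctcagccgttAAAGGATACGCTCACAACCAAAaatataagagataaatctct
Of the 20 bases just upstream, 17, 15 and 19 were those of the miR-690 hairpin. Of the 5 hairpin bases downstream, 1, 2 and 1 were the same when compared position by position, with no gap allowed. In the Cpa3 and Gm40353 windows all 5 of these bases follow in order after 1 extra a, so the likeness there runs on downstream. For miR-6481, background knowledge adds that its mature letters resemble a stretch of the mitochondrial tRNA for phenylalanine. No mitochondrial sequence was searched here, so this likeness was not measured and its part in the counts was not tested.

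Reads for all 3 miRNAs were few. Library totals ran from 1038799 to 10483460 reads, and dmPGE2+APAP replicate 2 was the shallowest. Over the 9 libraries miR-6481 had 317 reads (rank 251 of 946 rows by total), miR-3470b had 741 (rank 193) and miR-690 had 1066 (rank 168). Levels are given in CPM, reads of a row scaled to library size with TMM factors, so 1 CPM was worth 1.17 reads in dmPGE2+APAP replicate 2 and 10.9 in Control replicate 3. Intervals in brackets are exact 95% Poisson intervals, which cover counting error only, since PCR copies are not independent molecules. No other row of the table had counts within 5% or 2 reads of any of these rows in every library (0 rows each), so none has a near copy. A row that holds the same reads and further reads of its own would not be found this way, so shared reads were not tested.

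The 5 hepatocyte rows listed summed to 375308 to 524761 CPM in the Control libraries, 328466 to 388121 in APAP and 353002 to 392593 in dmPGE2+APAP. Most of that was miR-122-5p, miR-148a-3p and miR-192-5p, with miR-194-5p at 4068 to 4702 CPM in the group means and miR-802-5p at 6.69 to 8.28. Over all 360 rows, edgeR's quasi-likelihood test with a Benjamini-Hochberg threshold of 0.05 called 0.833% higher and 0% lower in APAP against Control, where 6.39% and 3.33% had an unadjusted p under 0.05. It called 0% higher and 0.278% lower in dmPGE2+APAP against APAP (unadjusted 2.5% and 3.89%), and 0.278% higher and 0% lower in dmPGE2+APAP against Control (unadjusted 5.56% and 5%). These shares include the chosen miRNAs. Over the other 357 rows there were 2 calls, 1 call and 0 calls in these comparisons, in the order given.

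miR-6481 had 3 reads in Control liver in all and was counted in every treated library. It passed the low-count filter only through the treated libraries, where its level is high. Control replicates 1, 2 and 3 held 0, 0 and 3 reads, and the 0 counts in replicates 1 and 2 have exact 95% upper limits of 0.541 and 0.501 CPM (0.440 and 0.408 by the floor of 3 reads). The APAP libraries held 49, 25 and 19 reads, which are 7.05 CPM [5.22 to 9.32], 3.42 [2.22 to 5.05] and 4.54 [2.74 to 7.10]. The dmPGE2+APAP libraries held 33, 29 and 159 reads, or 4.67 CPM [3.21 to 6.55], 24.7 [16.5 to 35.5] and 32.5 [27.6 to 38.0]. All 6 treated libraries lay above all 3 Control libraries, while dmPGE2+APAP replicate 1 lay within the APAP range and the other 2 lay above it.

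Group means for miR-6481 were 0.0921 ± 0.160 CPM (SD, n = 3) for Control, 5.01 ± 1.86 for APAP and 20.6 ± 14.4 for dmPGE2+APAP. At the pooled APAP level the depth of the Control libraries would hold 126 reads where 3 were found, and at the pooled dmPGE2+APAP level 421. The pooled ratio of APAP to Control was 42.1 (exact 95% counting interval 14.0 to 208), and that of dmPGE2+APAP to Control was 140.4 (47.4 to 686). All Control reads came from replicate 3. Against the other 2 Control libraries, with a floor of 3 reads over both, the pooled level was 23.8-fold higher in APAP and 79.5-fold higher in dmPGE2+APAP. These ratios leave out the counting error and the replicate spread of the treated groups, so they are not lower limits.

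Between the treated groups miR-6481 had a pooled ratio of dmPGE2+APAP to APAP of 3.33 (2.60 to 4.29) and a fitted log2 difference of 1.99 (SE 0.62). Replicates 2 and 3 of dmPGE2+APAP carried the high values, the higher of them standing 6.97-fold above replicate 1, and neither interval meets that of replicate 1. In order of level dmPGE2+APAP came first and APAP next, with ranges that overlap through replicate 1 of dmPGE2+APAP, and Control lay below both without overlap. In rank among all 946 rows by group mean, miR-6481 went from 617.5 (Control) to 256 (APAP) and 161 (dmPGE2+APAP).

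**Figure D3:**
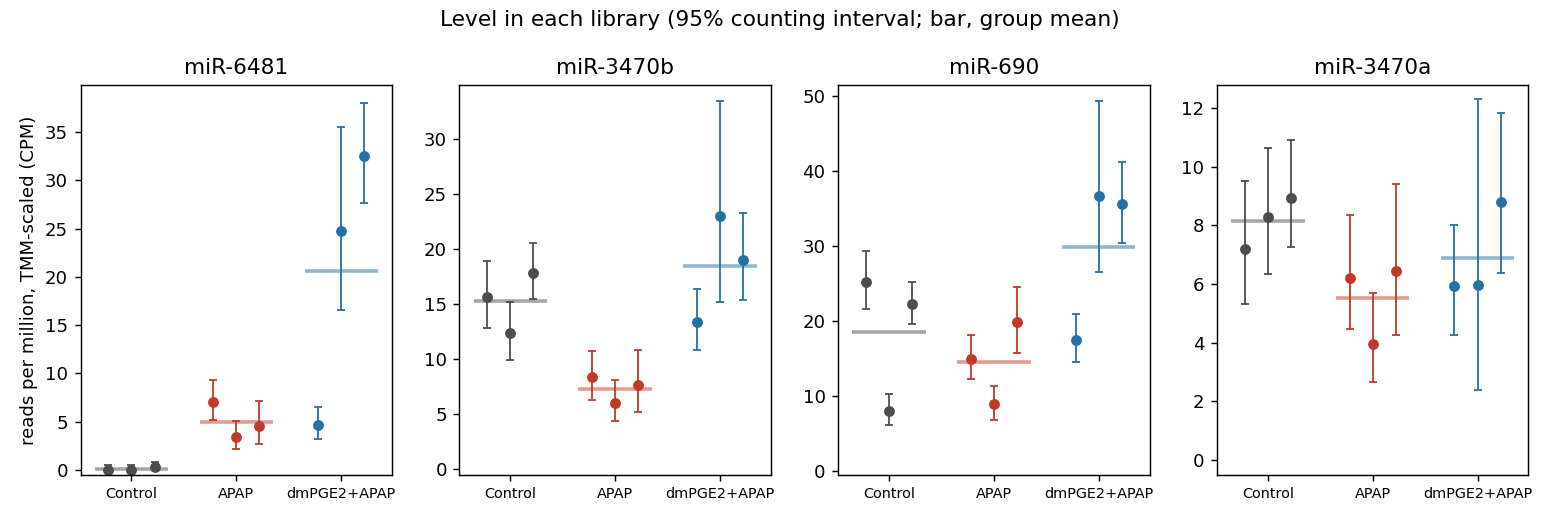
Level of each miRNA (y axis, TMM-scaled CPM) in the 9 libraries by group, with exact 95% counting intervals and a bar at the group mean. miR-6481 is near 0 in Control, miR-3470b is lower in all APAP libraries (6.03 to 8.35 CPM) than in the other groups, and the groups of miR-690 and most of those of miR-3470a overlap.

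miR-3470b was lower in APAP liver than in either other group. Control libraries held 107, 91 and 194 reads, or 15.7, 12.4 and 17.9 CPM. APAP libraries held 58, 44 and 32 reads, or 8.35, 6.03 and 7.65 CPM. With dmPGE2 before APAP the libraries held 95, 27 and 93 reads, or 13.4, 23.0 and 19.0 CPM. In TMM-scaled CPM the APAP values lay below all 6 others, and the Control and dmPGE2+APAP ranges overlapped. Scaled by library total alone, the gap between APAP and Control is narrow. APAP replicate 3 held 32 of 3523998 reads and Control replicate 2 held 91 of 9739009.

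Means of miR-3470b were 15.3 ± 2.77 CPM (SD, n = 3) for Control, 7.34 ± 1.19 for APAP and 18.5 ± 4.81 for dmPGE2+APAP. The fitted log2 difference was -1.06 (SE 0.29) for APAP minus Control, 1.29 (SE 0.30) for dmPGE2+APAP minus APAP and 0.23 (SE 0.29) for dmPGE2+APAP minus Control. Both of the larger differences use the same APAP libraries, so they are not separate evidence of a fall and a return. Scaled by library total alone, APAP minus Control was -0.84 (SE 0.36) and dmPGE2+APAP minus APAP was 1.28 (SE 0.37). In the shallowest library, dmPGE2+APAP replicate 2, the level of 23.0 CPM rests on 27 reads and has an interval of 15.2 to 33.5 CPM.

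miR-690 was the most abundant of these miRNAs over all libraries with wide ranges in each group. Control libraries held 172, 59 and 242 reads, or 25.2, 8.02 and 22.3 CPM, so replicate 2 stood apart with an interval of 6.10 to 10.3 CPM. APAP libraries held 104, 65 and 83 reads, or 14.97, 8.90 and 19.8 CPM. The dmPGE2+APAP libraries held 124, 43 and 174 reads, or 17.5, 36.6 and 35.6 CPM.

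Mean levels of miR-690 were 18.5 ± 9.21 CPM (SD, n = 3) for Control, 14.6 ± 5.48 for APAP and 29.9 ± 10.7 for dmPGE2+APAP, and the ranges of every pair of groups overlapped. The fitted log2 difference was -0.36 (SE 0.41) for APAP minus Control, 1.02 (SE 0.42) for dmPGE2+APAP minus APAP and 0.66 (SE 0.41) for dmPGE2+APAP minus Control. As with miR-6481, replicate 1 of dmPGE2+APAP was the lowest of its group, and it is so for miR-3470b as well.

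Of these miRNAs 1 lay above Control without overlap in APAP, where 8.61% of all tested rows did, and 1 lay below it, where 8.06% did. With dmPGE2+APAP 1 lay above APAP without overlap (5.83% of all rows) and 1 above Control (6.11%). The miRNAs were chosen on these comparisons, so nothing is read from their counts.

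miR-3470a, which shares the number of miR-3470b and is encoded at chromosome 6, 83090311 to 83090387, outside any gene of the table used, was added by name as a relative. Its means were 8.14 ± 0.883 CPM (SD, n = 3) for Control, 5.54 ± 1.36 for APAP and 6.90 ± 1.64 for dmPGE2+APAP. Its log2 difference was -0.57 (SE 0.31) for APAP minus Control, 0.35 (SE 0.33) for dmPGE2+APAP minus APAP and -0.22 (SE 0.32) for dmPGE2+APAP minus Control. It passed in none of the 3 comparisons, with an adjusted p of 0.532, 0.896 and 0.789 by edgeR's quasi-likelihood test. In TMM-scaled CPM all 3 of its APAP libraries (3.97 to 6.46) lay below all 3 Control libraries (7.19 to 8.93), as 8.06% of all tested rows did. Scaled by library total alone, these groups overlap for miR-3470a. Control replicate 1 held 49 of 7590735 reads and APAP replicate 3 held 27 of 3523998.

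Within a library, the ratio of miR-3470b to miR-3470a needs no scaling between libraries. Control libraries gave 2.18, 1.49 and 2, APAP libraries 1.35, 1.52 and 1.19, and dmPGE2+APAP libraries 2.26, 3.86 and 2.16. The means were 1.89 ± 0.358 (SD, n = 3), 1.35 ± 0.166 and 2.76 ± 0.951. The APAP ratios lay below all dmPGE2+APAP ratios and overlapped those of Control at 1 library on each side. As miR-3470b was chosen on these comparisons and ratios of other rows were not computed for comparison, nothing is read from that separation. The ratio of 3.86 rests on 27 against 7 reads, with an exact 95% interval of 1.64 to 10.5.

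**Figure D4:**
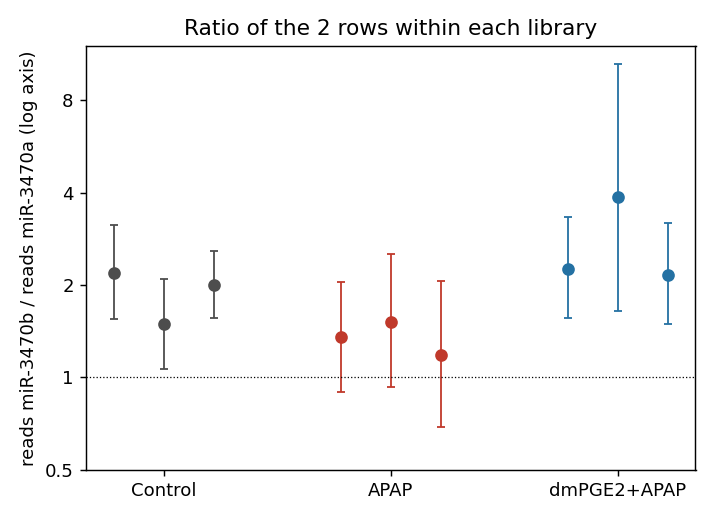
Reads of miR-3470b over reads of miR-3470a (y axis, log scale) in each of the 9 libraries by group, with exact 95% counting intervals. APAP libraries lie between 1.19 and 1.52, and dmPGE2+APAP libraries between 2.16 and 3.86.

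The tested rows whose letters matched at least 4 promoter windows were a set formed after the matches were seen. In it miR-3470b, miR-690 and miR-6538 had their lowest mean in APAP and their highest in dmPGE2+APAP, while miR-574-5p stayed nearly level. miR-3470b and miR-690 had been chosen on these comparisons, and the cutoff of 4 windows is the count of miR-690 itself. The share of all tested rows with this order of means was not computed, so nothing is read from it. A shared source of reads was not tested. miR-6538 had 4.68 ± 1.98 CPM (SD, n = 3) for Control, 2.41 ± 1.23 for APAP and 8.90 ± 3.31 for dmPGE2+APAP, with a log2 difference of 1.75 (SE 0.46) for the last against APAP and an edgeR adjusted p of 0.101. miR-574-5p, whose letters matched nearly as many windows as those of miR-3470b, stood at 23.5 ± 5.31, 24.95 ± 2.19 and 25.3 ± 4.68 CPM.

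Rows close to these miRNAs by number rarely had enough reads. Names from miR-690 to miR-719 gave 17 rows, of which 3 were tested, those from miR-3470 to miR-3475 gave 10 rows with 2 tested, and those from miR-6200 to miR-6599 gave 11 rows with 4 tested. Without the 3 chosen miRNAs, edgeR called 0 of these rows in any comparison, beside 2, 1 and 0 calls over the other 357 rows in APAP against Control, dmPGE2+APAP against APAP and dmPGE2+APAP against Control. For APAP minus Control the median log2 value was -0.62 over miR-700-3p and miR-700-5p and 0.23 over miR-6240, miR-6516-5p and miR-6538, against -0.05 over the 357. For dmPGE2+APAP minus APAP the medians were 0.92 and 0.90, against 0.00, with single values from -0.65 for miR-6516-5p to 2.21 for miR-700-3p. miR-6240, whose hairpin fold was second weakest at -0.211 kcal/mol per base, had 0.637, 1.22 and 2.11 CPM in Control, APAP and dmPGE2+APAP.

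Likeness of course was measured as the root mean square difference of centred log2 CPM over the 9 libraries. miR-6481 had no close row, its nearest being miR-503-5p at 1.68, then miR-205-5p at 1.81, miR-6240 at 1.82, miR-331-3p at 1.94 and miR-101c at 1.96, against a median of 2.42 over all tested rows. Nearest to miR-3470b were miR-381-3p at 0.37, miR-127-3p at 0.38, miR-181a-1-3p at 0.39, miR-676-3p at 0.40 and miR-383-5p at 0.41 (median 0.71). miR-127-3p, an imprinted miRNA, had 35.3, 19.8 and 31.9 CPM in Control, APAP and dmPGE2+APAP. Nearest to miR-690 were miR-5099 at 0.48, miR-322-3p at 0.50, miR-214-3p at 0.51, miR-181a-1-3p at 0.51 and miR-152-3p at 0.52 (median 0.82). miR-5099 had 11.8, 8.99 and 17.1 CPM in these groups. miR-3470b and miR-690 differed from each other by 0.50, and miR-6481 differed from them by 2.40 and 2.12.

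Among sums over markers of other cells, only the red-cell sum had ranges that did not overlap between the groups. By edgeR 1 red-cell row was called lower in dmPGE2+APAP against APAP, where 0.278% of all tested rows were. Myeloid, lymphocyte, endothelial and muscle rows had 0 calls in each comparison. Of the 7 red-cell rows listed 6 were in the table, and their sum was 505 to 666 CPM for Control, 881 to 1712 for APAP and 439 to 477 for dmPGE2+APAP. Within it miR-486a-5p, miR-486a-3p and miR-486b-3p had nearly equal means, at 47.9, 48.7 and 47.7 CPM in Control and 108, 109 and 108 in APAP. The sum may therefore hold the same reads more than once, which was not tested. The 4 myeloid rows, miR-223-3p and miR-142a-5p among them, summed to 124 to 233, 177 to 319 and 153 to 238 CPM. The red-cell sum was highest in the APAP libraries, where miR-3470b was lowest. Lymphocyte, endothelial and muscle rows summed to 4.55 to 28.1, 7436 to 9114 and 482 to 2702 CPM in Control, 17.5 to 24.8, 7989 to 9433 and 315 to 904 CPM in APAP, and 18.7 to 29.0, 8787 to 10173 and 341 to 722 CPM in dmPGE2+APAP. None of the marker rows in the table was at 0 in a whole group. Their part in the levels of miR-6481, miR-3470b and miR-690 was not tested, and in whole liver fewer cells of a type and less RNA per cell cannot be told apart.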

How the data were processed

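Small RNA was ligated to adaptors, amplified and gel-selected from total liver RNA, per the labels' protocols. The values used are whole-number read counts per mature miRNA, as deposited by the authors and per the file headers. Bowtie and the build mm10 are named in the submitters' processing notes, while the version, counting tool, annotation and use of strand are not given in the sources used. The table's 9 further value columns, in another unit, were not used.

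Counts were fitted in R 4.3.3 with edgeR 4.0.16 (TMM, filterByExpr with minimum count 10 and total 15, robust quasi-likelihood, all 9 libraries, 3 group means). Alternatives included DESeq2 1.42.0, other scaling, no filter, each library left out and the replicate number as a block. Hairpins were folded with RNAfold 2.7.2. Of 360 tested rows, 303 matched a RefSeq mature sequence and 287 a hairpin. Scripts were tested on simulated data. Members, lists and the rule for named rows (relatives, and the 5 nearest rows by root mean square difference) were chosen with earlier results of these data known.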

Additional observations from a re-analysis of the deposited data

How the results depend on the processing

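All 135 alternative log2 values of miR-6481, miR-3470b and miR-690 (9 values, 15 alternatives each) kept their sign, and 131 moved by less than the spread between replicates. The other 4 were those of miR-6481 against Control, where 3 Control reads set the value: with a prior count of 2 the log2 difference was 3.63 for APAP (from 5.20) and 5.57 for dmPGE2+APAP (from 7.20), and without Control replicate 3 it was 7.85 and 9.85. With 1 library left out, the log2 differences of APAP minus Control, dmPGE2+APAP minus APAP and dmPGE2+APAP minus Control ranged from 4.76 to 7.85, 1.33 to 2.53 and 6.54 to 9.85 for miR-6481, from -1.19 to -0.92, 1.17 to 1.502 and 0.13 to 0.45 for miR-3470b, and from -0.70 to -0.07, 0.77 to 1.34 and 0.36 to 0.99 for miR-690. Leaving out a library of the group outside a comparison could hardly move its value. The last comparison also combines the others, so these values are not independent. Without Control replicate 1, miR-690 stood at -0.07 (SE 0.47) for APAP minus Control, so a kept sign says little there.

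Counts of calls over all rows, the chosen miRNAs included, depended on the setting, and the cause was not tested. APAP against Control gave 3 calls, and 7 with median-ratio size factors, 8 with library totals, 9 with no filter, 13 with DESeq2 and 0 with the replicate block (32 at an unadjusted p under 0.05). dmPGE2+APAP against APAP gave 1 call, and 9 with no filter, 8 with DESeq2 and 2 with the replicate block. dmPGE2+APAP against Control gave 1 call, and 2 each with median-ratio factors, library totals, no filter and DESeq2, and 1 with the replicate block. With 1 library left out, edgeR's counts ranged from 0 to 9, 0 to 5 and 1 to 2. The first was 0 without APAP replicate 3, APAP replicate 1 or Control replicate 2, and without APAP replicate 1 or dmPGE2+APAP replicate 2 the second was 0. At an unadjusted p under 0.05 these settings gave 22, 22 and 43 rows for the first and 17 and 17 for the second. Deviations of same-numbered libraries correlated between -0.248 and 0.172, so the numbers were not taken as pairs. Reads per library were 0 to 159 for miR-6481, so its levels carry wide counting intervals.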
